A study of Mus musculus with 8 samples.

Results

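Cluster 1 is a group of lung group 2 innate lymphoid cells (ILC2s) that stood apart by high transcripts of Actn2 and Cd3g. Its members are the cells to which the authors' deposited cell table gives cluster number 1. They were 1934 of the 9076 single cells, or 21.3%, and made the second largest of 6 clusters numbered 0 to 5. Cluster 0 held 2289 cells, cluster 2 held 1671, cluster 3 held 1198, cluster 4 held 1071 and cluster 5 held 913.

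The cells came from lungs of wild type C57BL/6 mice and were sorted as ILC2s, labelled with antibody hashtags, pooled and sequenced from the 3′ end on a droplet (10x) platform. The droplet libraries are labelled male. In the cell table hashtags 1 and 2 are PBS without IL-33, hashtags 3, 4 and 5 are IL-33, and hashtags 6, 7 and 8 are IL-33 plus dopamine, where IL-33 was given through the nose for 3 days and dopamine or its PBS vehicle went into the nose with it. Bulk full-length (Smart-Seq2) libraries of 2000 sorted ILC2s each came from female wild type C57BL/6 mice, 3 given IL-33 plus PBS and 3 given IL-33 plus dopamine. Cluster 1 held 26 and 174 cells in the PBS hashtags, 389, 304 and 413 in the IL-33 hashtags, and 197, 259 and 172 in the IL-33 plus dopamine hashtags. The labels do not say that a hashtag was 1 mouse, so each single-cell p-value below measures the spread between hashtags of a single pool. The bulk p-values measure the spread between bulk libraries.

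ILC2s are tissue lymphocytes that carry no rearranged antigen receptor. They depend on the transcription factor GATA3, sense the epithelial alarmin IL-33 through the receptor encoded by Il1rl1, and release the type 2 cytokines interleukin-5 and interleukin-13 and the repair factor amphiregulin (Areg). Dopamine is a catecholamine neurotransmitter that acts through G protein-coupled receptors. Actn2 encodes an alpha-actinin, a protein that crosslinks actin filaments and is best known from the Z-disc of muscle. Cd3g encodes the gamma chain of CD3, which in T cells carries the antigen receptor to the surface and relays its signal. Eif4e3 encodes a member of the eIF4E family of proteins that bind the cap of messenger RNA.

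The genes that name the cluster lie on different chromosomes of the mouse build GRCm38 (GENCODE M21). Actn2 is at chr13:12269426-12340760 on the minus strand, Cd3g at chr9:44969572-44980431 on the minus strand, and Eif4e3 at chr6:99625135-99666771 on the minus strand, where it overlaps the gene model Gm20696. Cd3g lies beside Cd3d (chr9:44981786-44987339, plus strand) and near Cd3e (chr9:44998740-45009627, minus strand), the other CD3 chains of that locus. The 250 bases before the RefSeq start of 4 genes are shown (GRCm38.p6), Actn2 and Cd3g because they lead the cluster, and Plaur and Atf3 because they were among the genes lowest in it. Capitals mark the motifs searched on both strands, which were the AP-1 site TGACTCA, the core TGACG of the cAMP response element and the GATA site AGATAA.
Actn2, chr13:12340733-12340982, minus strand: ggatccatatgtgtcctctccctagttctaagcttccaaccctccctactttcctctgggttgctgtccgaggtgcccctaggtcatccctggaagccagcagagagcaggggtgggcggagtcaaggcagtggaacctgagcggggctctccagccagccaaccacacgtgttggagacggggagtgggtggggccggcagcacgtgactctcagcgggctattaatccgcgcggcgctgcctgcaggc
Cd3g, chr9:44980432-44980681, minus strand: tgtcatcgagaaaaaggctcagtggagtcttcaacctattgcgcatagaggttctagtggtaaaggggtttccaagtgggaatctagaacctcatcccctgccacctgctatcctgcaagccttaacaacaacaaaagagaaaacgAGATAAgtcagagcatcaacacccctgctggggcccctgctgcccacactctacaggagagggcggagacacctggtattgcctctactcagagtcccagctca
Plaur, chr7:24462233-24462482, plus strand: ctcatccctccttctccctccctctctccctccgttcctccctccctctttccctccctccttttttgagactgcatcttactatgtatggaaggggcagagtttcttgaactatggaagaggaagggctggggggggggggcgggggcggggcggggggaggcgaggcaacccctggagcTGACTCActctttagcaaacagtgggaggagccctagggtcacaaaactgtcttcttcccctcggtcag
Atf3, chr1:191183334-191183583, minus strand: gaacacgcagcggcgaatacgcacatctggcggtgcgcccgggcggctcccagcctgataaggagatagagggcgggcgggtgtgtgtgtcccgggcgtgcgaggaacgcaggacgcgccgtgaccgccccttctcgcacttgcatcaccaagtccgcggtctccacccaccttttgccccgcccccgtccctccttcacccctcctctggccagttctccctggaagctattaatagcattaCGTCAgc
None of the 3 motifs was in the Actn2 window, the Cd3g window held the GATA site, the Plaur window the AP-1 site and the Atf3 window the core of the cAMP response element. Among all 32851 RefSeq windows of 300 bases (the 250 shown and 50 after the start), 5.2% held TGACTCA, 20.8% held TGACG and 11.2% held AGATAA. Of the 15 leading genes defined below, 12 had a window, with 16 windows in all. Each motif occurred in 3 of these 16 windows, at 3 genes. A match describes the letters of a window and not a bound site.

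Levels are given as UMI counts, that is counts of distinct captured transcripts, scaled to the same total in each hashtag and group of cells (CPM). The leading genes of cluster 1 were taken from its CPM against the CPM of all other clusters of the same hashtag, and since the clusters were made from these genes, the values are a description without a test. Actn2 led with a mean log2 ratio of 2.34 (range 1.26 to 3.41 over 8 hashtags), at a mean of 88.5 CPM in cluster 1 and 17.4 CPM elsewhere. Cd3g had a mean log2 ratio of 1.44 (0.88 to 2.19), with 148.8 against 54.0 CPM. Eif4e3 had 1.09 (0.65 to 1.90), with 62.9 against 28.9 CPM. Of 2694 genes with at least 50 CPM, 20% were higher and 19.5% lower in cluster 1 in every hashtag, but 0.371% exceeded a mean 2-fold excess while 5.57% were over 2-fold lower. Fewer genes were far above the other clusters than far below them.

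The other leading genes grouped into calcium-binding and membrane-binding proteins, cytoskeletal proteins and regulators. S100a6, a calcium-binding S100 protein, was at a mean of 1257 against 479 CPM, and S100a11 of the same family at 781.5 against 397 CPM. Lgals1, which encodes the glycan-binding galectin-1, stood at 971 against 412 CPM. Anxa2, a calcium-dependent membrane binder, had 91.1 against 50.8 CPM. The cytoskeletal members were Capg, which caps actin filaments (267 against 112 CPM), Dst, a linker of cytoskeletal filaments (92.5 against 39.1 CPM), and the intermediate filament gene Vim (1009 against 574 CPM). Serpinb6a, a protease inhibitor, the splicing regulator Hnrnpll, the adenylyl cyclase gene Adcy7, the Polycomb gene Phc3 and the LIM protein gene Crip1 completed the 15, with mean log2 ratios of 1.10, 1.04, 0.89, 0.85 and 0.84. Just outside were S100a4 at 0.83 and Ahnak at 0.81.

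**Figure D1:**
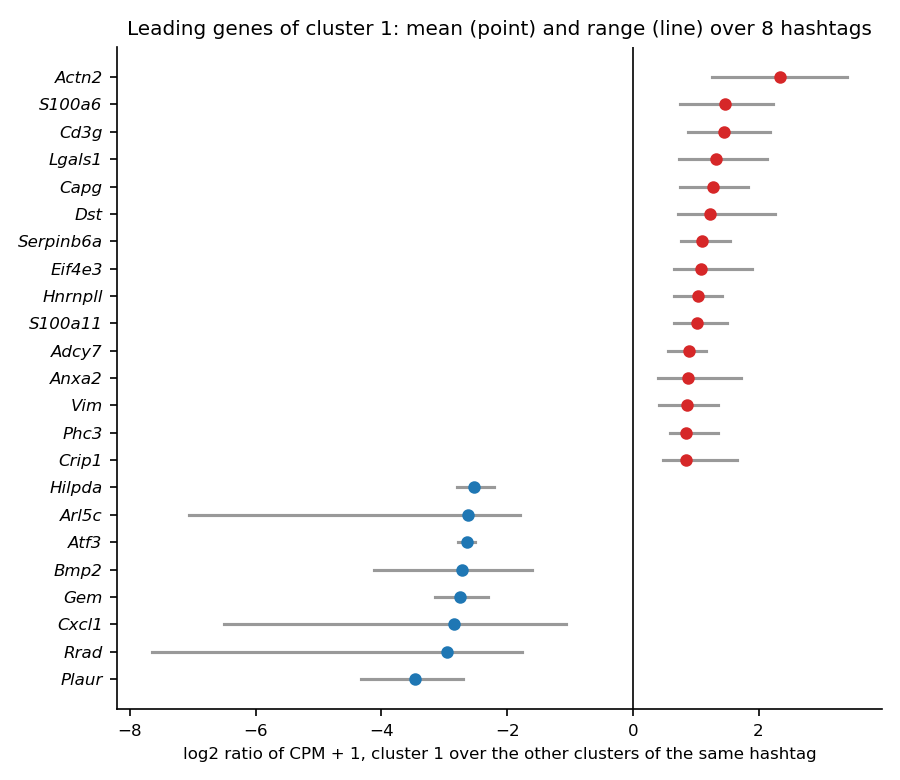
Mean (point) and range over 8 hashtags (line) of the log2 ratio of CPM + 1 in cluster 1 over the other clusters of the same hashtag, for the 15 leading genes (red) and the 8 lowest genes (blue). Actn2 reaches 2.34 on the right and Plaur -3.46 on the left, and the wide lines of Rrad, Cxcl1 and Arl5c come from hashtag 1, where 26 cells gave no UMI of them.

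Among the genes lowest in cluster 1 was Plaur, far below its level elsewhere. Plaur, the urokinase receptor gene, had a mean of 6.59 CPM in cluster 1 and 77.6 CPM elsewhere, a log2 ratio of -3.46. Atf3, a stress-induced transcription factor, had 35.8 against 227.5 CPM and varied little between hashtags (-2.78 to -2.51). Bmp2, a secreted growth factor, had 32.1 against 208 CPM, and the lipid droplet gene Hilpda had 251 against 1441 CPM. The GTPase genes Rrad, Gem and Arl5c and the chemokine gene Cxcl1 made up the 8, with log2 ratios of -2.95, -2.74, -2.63 and -2.84. Just outside was Il5 at -2.52, with a mean of 109 CPM in cluster 1 and 637 CPM elsewhere. Its level elsewhere was uneven, with pooled values of 2357 CPM in cluster 3 but 91.2 CPM in cluster 0 and 55.6 CPM in cluster 4, both under the 110.1 CPM of cluster 1. Plaur and Atf3 were lower in cluster 1 than in each other cluster, at pooled values of 6.06 and 31.5 CPM, where the next lowest were 12.7 CPM (cluster 4) and 86.2 CPM (cluster 0).

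Cluster 5 came nearest to cluster 1 in the leading genes. Pooled over hashtags, Actn2 was at 85.2 CPM in cluster 1, 49.6 CPM in cluster 5 and between 10.3 and 11.3 CPM in clusters 0, 2, 3 and 4. Cd3g was at 158.5 CPM in cluster 1, 100.5 CPM in cluster 5 and between 40.4 and 54.3 CPM in the others. Eif4e3 was at 58.9 CPM in cluster 1, then 36.0 CPM in cluster 0 and 32.1 CPM in cluster 5. S100a6 did not separate the pair, with 1264 CPM in cluster 1 and 1277 CPM in cluster 5. Of the 15 leading genes, 8 were highest of all clusters in cluster 1 and 7 in cluster 5. Across 2505 genes, the pooled log2 levels of cluster 1 correlated with those of cluster 0 at r = 0.973, cluster 4 at 0.968, cluster 5 at 0.952, cluster 2 at 0.921 and cluster 3 at 0.864. These r describe genes within a single pool of libraries, and cluster 0 was the nearest by this measure.

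**Figure D2:**
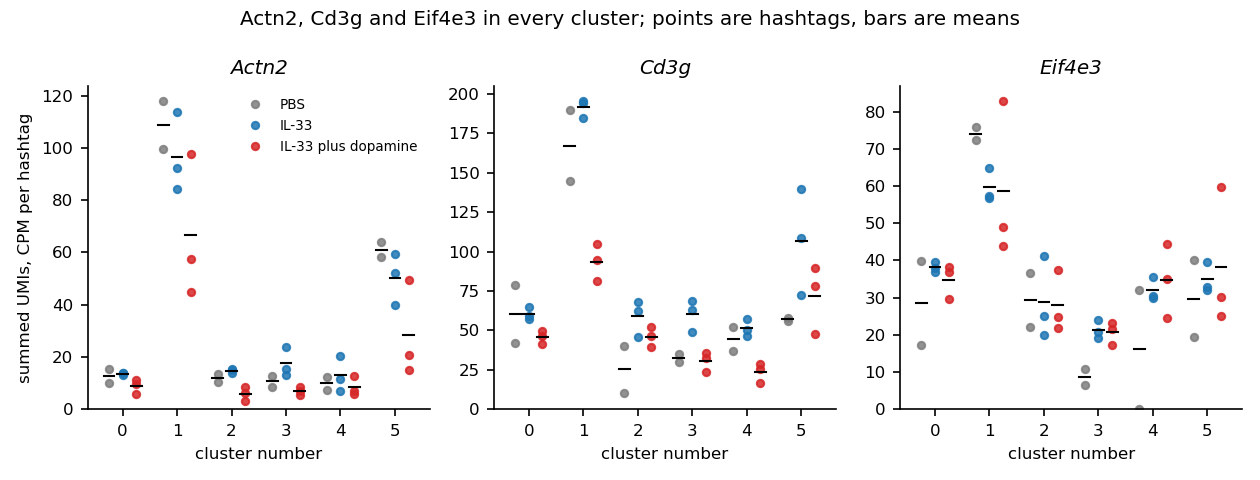
CPM of Actn2, Cd3g and Eif4e3 in each of the 6 clusters, with a point per hashtag coloured by treatment and a bar at each group mean. Actn2 lies between 44.8 and 118 CPM in cluster 1 and cluster 5 holds the next highest points, while Eif4e3 is nearer to the other clusters.

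Most cells of cluster 1 did not carry all of the naming transcripts. At least 1 UMI of Actn2 was found in 25.3% of its cells (exact 95% binomial interval 23.4 to 27.3%), against 3.8% in cluster 0 and 19.7% in cluster 5. Cd3g was found in 33.7% (31.6 to 35.8%), against 12% in cluster 4, the lowest, and 27.2% in cluster 5. Eif4e3 was found in 24.0% (22.2 to 26.0%), with 10.5 to 22.7% in the other clusters. The median cell held 4613 UMIs in cluster 1, 4082 in cluster 0 and 8142 in cluster 5. After each cell was thinned to 2000 UMIs, with 4 shallower cells left out, of which 1 was in cluster 1, the shares in cluster 1 were 14.1%, 21.6% and 11.7%, and in cluster 5 they were 7.77%, 13.9% and 6.55%. At equal depth cluster 1 therefore had the higher share of each. Of its 1934 cells, 777 had a UMI of none of the 3 genes, 764 of 1, 338 of 2 and 55 of all 3. The intervals cover counting error only.

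Few cells of cluster 1 held Cd3e, Cd3d or Trac, which T cells express with Cd3g. Cd3e was found in 3.05% of the cells, against 0.918 to 1.31% in each other cluster. Cd3d was found in 1.24%, against 1.18 to 2.85% in the others. Trac, the constant part of the T cell receptor alpha chain, was found in 2.43%, against 1.70 to 7.51%. Foxp3 had no UMI and Cd8a is not listed in the table. Trbc1, a constant part of the beta chain, was found in 68.6% of cells, against 73.0 to 83.1% in the other clusters. In cluster 1 Gata3 was found in 83.4% and Il1rl1 in 89.2%. Of the 651 cells with a Cd3g UMI, 47 (7.22%) also had Cd3e, against 12 of 1283 (0.935%) of the cells without it. Any of Cd3e, Cd3d, Trac, Cd4 and Cd8b1 was found in 67 of the 651 cells (10.3%) and 64 of the 1283 (4.99%). The summed T cell list, which itself holds Cd3g, was at 860 to 1294 CPM in cluster 1 and 1012 to 1244 CPM in the other clusters of the same hashtags. Free RNA in droplets can leave UMIs in cells that do not express a gene. The macrophage gene Lyz2, which ILC2s should lack, was found in 0.310% of cluster 1 cells.

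The markers of ILC2s were present in cluster 1, at lower sums than in the other clusters pooled. The summed ILC2 markers were at 4236 to 5107 CPM in cluster 1 and 7279 to 8538 CPM in the other clusters. Gata3 was at 489 and 499 CPM in the PBS hashtags, 506, 476 and 429 in the IL-33 hashtags, and 424.5, 476 and 532 in the IL-33 plus dopamine hashtags, while the other clusters held 869 to 1184 CPM. Il1rl1 was at 574 to 690.5 CPM in cluster 1 and 730 to 847 CPM elsewhere. Klrg1, an inhibitory receptor of mature ILC2s, went the other way, at 127 to 181 CPM in cluster 1 against 98.9 to 139 CPM. These ranges pool the other clusters, and by share of cells cluster 0 was close to cluster 1. In cells thinned to 2000 UMIs, Gata3 was found in 57.7% of cluster 1 and 59.7% of cluster 0. In clusters 2 to 5 it was found in 73.2 to 93.1%. For Il1rl1 the shares were 67.4% in cluster 1, 69.3% in cluster 0 and 71.7 to 82.1% in clusters 2 to 5. The macrophage list summed to 0 to 25.1 CPM, with 8 of its 10 Lyz2 UMIs in hashtag 8 in a single cell. The ILC3 list summed to 308 CPM in hashtag 1 and 7.39 to 31.9 CPM in the others, and 33 UMIs of Il17a in hashtag 1 came from 1 of its 26 cells.

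Against the sum of the other clusters, cluster 1 was low in immediate early, cAMP, NF-kB and cytokine genes. With IL-33, alone or with dopamine, this did not hold for the group means of Il5, Il13 and Csf2 against clusters 0 and 4, the most alike. With IL-33 alone, mean Il13 was 104 CPM in cluster 1, 60.1 CPM in cluster 0 and 55.2 CPM in cluster 4, and mean Csf2 was 699.7, 591 and 513 CPM. With PBS, mean Il13 was 42.4, 88.6 and 44.1 CPM in the same order, so it was lowest in cluster 1. Mean Il5 with PBS was 95.1, 105 and 44.3 CPM, and mean Csf2 730, 525 and 346 CPM. Of the 33 immediate early genes, 26 were lower in every hashtag and none was higher (median log2 ratio -0.99). The cAMP and CREB response list had 14 of 18 members lower and none higher (median -1.20), and the NF-kB response list 17 of 22 lower and none higher (median -0.84). Of 22 type 2 effectors and secreted factors, 12 were lower and none higher (median -0.95). Nr4a1, an immediate early nuclear receptor, was at 573 to 792.5 CPM in cluster 1 and 1596 to 2052 CPM elsewhere, and Crem, a feedback regulator of cAMP signalling, at 57.6 to 94.6 against 216 to 331.5 CPM. Areg was at 340 to 606 CPM in cluster 1 against 1101 to 1942 CPM, and with IL-33 its mean was 395 CPM in cluster 1, 783 CPM in cluster 0 and 554 CPM in cluster 4. Co-stimulatory and checkpoint receptors had 9 of 14 members lower and none higher (median -0.76). For comparison, over the 7205 genes with at least 10 CPM, 878 were higher and 790 lower in every hashtag, with a median log2 ratio of 0.05.

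Ribosomal and respiratory genes lay slightly above the other clusters. Of 79 cytosolic ribosomal protein genes, 46 were higher in every hashtag and none lower, at a median log2 ratio of 0.10. Complex I, the entry point of electrons from NADH, had 13 of 37 members higher and none lower (median 0.15), and the nuclear genes of complexes II to V 19 of 39 higher (median 0.18). Genes encoded by mitochondrial DNA had 6 of 13 higher (median 0.07). CD3 and antigen receptor signalling had 3 of 19 members higher and 7 lower (median -0.29). Actin crosslinking and adhesion genes had 7 of 23 higher and 2 lower (median 0.12). The eIF4E family and its partners had 3 of 17 higher and 5 lower (median -0.11).

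The share of each hashtag's cells that fell in cluster 1 was 8.36% and 23.3% for PBS, 26.2%, 27.8% and 27.2% for IL-33, and 15.7%, 21.6% and 11.7% for IL-33 plus dopamine. The IL-33 hashtags lay above all others. These shares have no test, because Cd3g and Crip1, which define the cluster, themselves differed between these groups as described below. The mean over hashtags of the median UMIs per cluster 1 cell was 4848 ± 797 (SD, n = 3) for IL-33, 4729 ± 771 (n = 3) for IL-33 plus dopamine and 4090 ± 197 (n = 2) for PBS. The exact two-sided permutation p over hashtags was 1 for dopamine and 0.3 for IL-33 against PBS, where 0.1 is the smallest p that either design allows. The mean of the hashtag medians of mitochondrial UMIs was 4.51% with dopamine and 4.29% with IL-33 alone (exact permutation p = 0.2). Summed cluster 1 UMIs ran from 110446 in hashtag 1 to 2363878 in hashtag 3.

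Whether dopamine given with IL-33 altered transcripts within cluster 1 was asked by comparing hashtags 6, 7 and 8 with hashtags 3, 4 and 5. Cd3g and the actin regulator gene Enah fell, and the inducible Hsp70 gene Hspa1a and the polysialyltransferase gene St8sia4 rose. Of 8005 genes tested with edgeR's quasi-likelihood test, 6 (0.075%) passed at an adjusted p under 0.05, 3 higher (0.0375%) and 3 lower (0.0375%), and 440 had an unadjusted p under 0.05. The other 2 that passed, Gm43305 and Ptgs2, are named because the count is small and were chosen after their values were seen.

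Cd3g was at 184.9, 194.1 and 195.8 CPM in the IL-33 hashtags and 81.4, 94.5 and 105.0 CPM in the IL-33 plus dopamine hashtags. The groups did not overlap, and the PBS hashtags, at 144.9 and 189.7 CPM, sat with the IL-33 side. The log2 fold change was -1.06 ± 0.124 (SE), with an edgeR adjusted p of 7.54e-05. The share of cluster 1 cells with a Cd3g UMI moved in the same way, at 39.6%, 41.4% and 37.0% with IL-33 and 23.9%, 22.8% and 24.4% with dopamine, beside 34.6% and 35.1% with PBS. The call held in all 12 alternatives run, from -1.16 to -0.96. Without the cells that held a UMI of Cd3e, Cd3d, Trac, Cd4 or Cd8b1, it was -1.05 (edgeR adjusted p = 0.000123).

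Enah, of the Ena/VASP family that promotes actin filament growth (chr1:181896384-182019990, minus strand), was at 31.7, 37.2 and 37.8 CPM with IL-33 and 14.6, 14.0 and 10.3 CPM with dopamine. All dopamine values lay below all others, PBS included (27.2 and 32.3 CPM). The log2 fold change was -1.40 ± 0.226, with an edgeR adjusted p of 0.00749. The call was lost with DESeq2 (adjusted p = 0.0503), without IL-33 hashtag 5 (0.0534) and without dopamine hashtag 7 (0.0897). At most 13.1% of the cells of a hashtag held an Enah UMI.

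Hspa1a (chr17:34969190-34972156, minus strand) was at 27.5, 24.4 and 19.1 CPM with IL-33 and 60.4, 51.1 and 45.8 CPM with dopamine. The groups did not overlap, and PBS stood at 18.1 and 36.5 CPM. The log2 fold change was 1.14 ± 0.189, with an edgeR adjusted p of 0.00749, which was lost without IL-33 hashtag 5 (0.134), dopamine hashtag 6 (0.133) or dopamine hashtag 7 (0.0897). Few cells carried the gene, and in hashtag 6 a single cell gave 21 of 66 UMIs. Its near-identical copy Hspa1b, between which reads can be split, was at 25.4, 23.7 and 26.0 CPM with IL-33 and 48.5, 20.3 and 26.6 CPM with dopamine. In the heat-shock list as a whole 3 of 18 tested members had a fold change above 0 and 15 below, with a median of -0.26, where the median over all genes was 0.004.

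St8sia4, whose enzyme adds polysialic acid to proteins, was at 155.3, 150.8 and 158.0 CPM with IL-33 and 256.2, 242.2 and 195.2 CPM with dopamine. PBS, at 135.8 and 198.1 CPM, overlapped both groups. The log2 fold change was 0.58 ± 0.115 (edgeR adjusted p = 0.0465), and the call was lost in 7 of 12 alternatives. The other clusters together held 137.7, 125.1 and 141.5 CPM with IL-33 and 184.6, 178.9 and 179.9 CPM with dopamine. Their log2 fold change was 0.42, so the rise was not confined to cluster 1. Ptgs2, which encodes the prostaglandin-forming enzyme COX-2, had a fold change of -1.62 ± 0.320 (edgeR adjusted p = 0.0465) at a mean of 19.3 CPM or less, was lost in 8 of 11 alternatives, and had 26 of its 40 UMIs in hashtag 3 from 1 cell. The non-coding Gm43305 had 1.00 ± 0.179 (edgeR adjusted p = 0.0191), lost in 4 of 12 alternatives. Its mean was also higher with dopamine in each other cluster, as in cluster 0 (418 against 242 CPM) and cluster 3 (764.5 against 425 CPM). Without dopamine hashtag 8, 24 genes passed in place of 6, and without IL-33 hashtag 5 or dopamine hashtag 7 a single gene did.

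**Figure D3:**
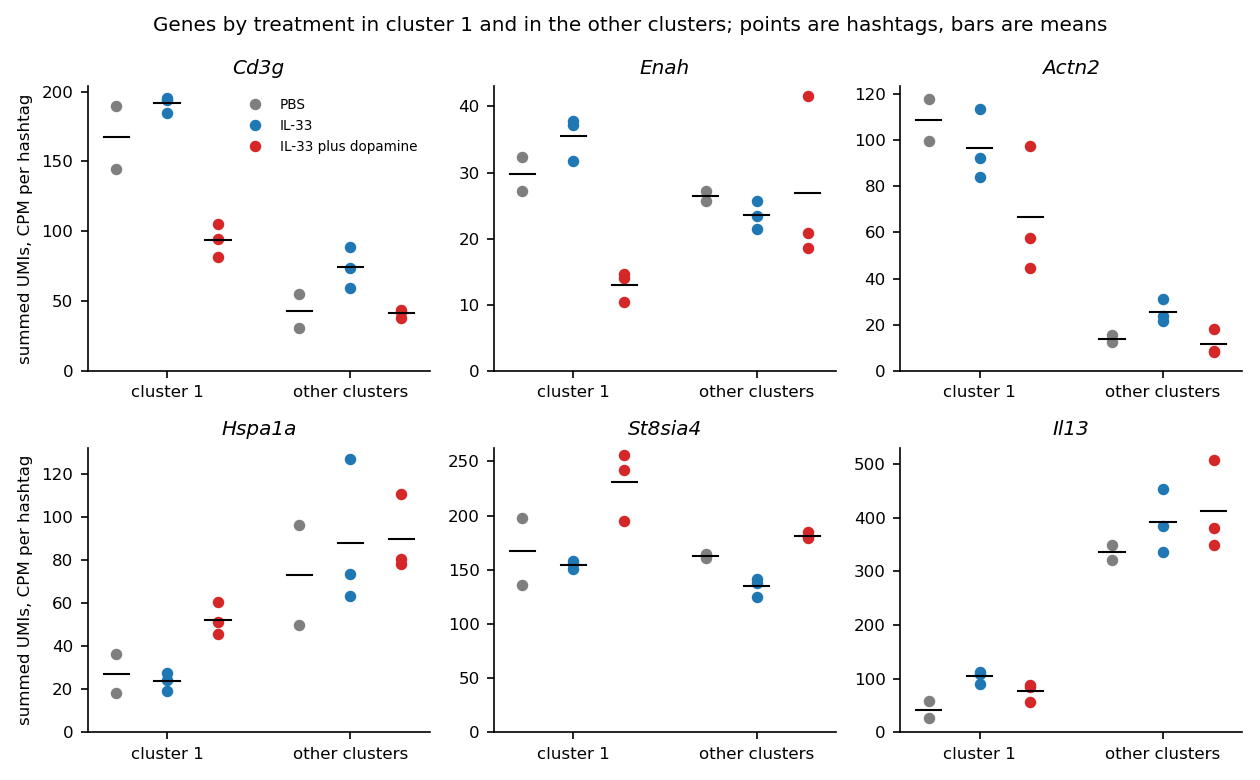
CPM per hashtag (points) and group means (bars) for 6 genes in cluster 1 and in the other clusters, by treatment. In cluster 1 the dopamine points of Cd3g (81.4 to 105.0 CPM) and Enah (10.3 to 14.6 CPM) lie below the IL-33 points, those of Il13 also lie below without passing the test, those of Hspa1a and St8sia4 lie above, and those of Actn2 overlap.

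The next genes by p, among named genes with a mean of at least 50 CPM and no overlap between the groups, did not pass. Spry2, a feedback inhibitor of receptor tyrosine kinase signalling, had a log2 fold change of 0.68 (edgeR adjusted p = 0.0948) and Trbc1 of 0.45 (0.199). On the lower side Dynll1 had -0.35, Ltb4r1, the leukotriene B4 receptor gene, -0.33 and Aprt -0.39, with edgeR adjusted p of 0.534, 0.625 and 0.702. The lack of overlap was a condition of this choice. It held for 5.96% of all genes tested on the higher side and 5% on the lower.

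Actn2 itself was at 84.2, 113.6 and 92.2 CPM with IL-33 and 57.6, 44.8 and 97.6 CPM with dopamine. Hashtag 8 overlapped the IL-33 group, and the log2 fold change of -0.63 ± 0.190 did not pass (edgeR adjusted p = 0.58). Without that hashtag it was -0.93 (edgeR adjusted p = 0.00959), and with no filter on low counts it was -0.65 (0.0158). It was -0.38 without dopamine hashtag 7, and none of the other 10 alternatives passed. Eif4e3 was at 56.7, 64.9 and 57.4 CPM with IL-33 and 43.9, 49.0 and 82.8 CPM with dopamine, so the groups overlapped. Il13 was at 91.0, 112.9 and 109.4 CPM with IL-33 and 88.7, 84.7 and 56.2 CPM with dopamine. The dopamine values were all lower, but the log2 fold change of -0.41 did not pass (edgeR adjusted p = 0.778). Il5 stayed low in every hashtag of cluster 1, at 93.9, 108 and 123 CPM with IL-33 and 152, 111 and 91.7 CPM with dopamine.

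By list, few genes of cluster 1 passed with dopamine. Of the 15 leading genes, 4 had a fold change above 0 and 11 below, with a median of -0.12 and Cd3g as the one that passed. Of all genes, 50.9% were above 0 and 49.1% below. CD3 and antigen receptor signalling genes had 5 above and 15 below (median -0.16), again with Cd3g as the one that passed. Type 2 effectors had 6 of 20 above 0 and 14 below (median -0.13), and none passed. Immediate early genes had 22 of 32 above 0 and none that passed. For respiration, 26 of 37 complex I genes and 12 of 13 mitochondrially encoded genes were above 0, with medians of 0.03 and 0.04 and none that passed. Cytosolic ribosomal genes had 70 of 79 below 0 at a median of -0.04, and none passed.

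Whether dopamine acted differently in cluster 1 than in the remaining cells was tested as an interaction with the hashtag as a block. Of 9902 genes, 3 passed with edgeR (0.0303%), all with a more negative change in cluster 1, and 523 had an unadjusted p under 0.05. Enah differed by -1.48 ± 0.278 and Calca, the gene of the neuropeptide CGRP, by -0.62 ± 0.116 (edgeR adjusted p = 0.0386 each), and Ptgs2, named after its value was seen, by -1.64. In the other clusters Enah was at 21.4, 25.8 and 23.5 CPM with IL-33 and 20.8, 18.6 and 41.5 CPM with dopamine, so only hashtag 8 was higher there. In that hashtag Enah reached 74.1 CPM in cluster 3. Without dopamine hashtag 8 the Enah difference was -1.05 (edgeR adjusted p = 0.238), and its call was lost in 8 of 11 alternatives. Calca was at 376, 700 and 305 CPM with IL-33 and 236, 219 and 469 CPM with dopamine in cluster 1, and these overlapped. Of the 15 leading genes 13 were above 0 in this difference and 2 below (median 0.21), where 49.6% of all genes were above and 50.4% below. Against cluster 0 alone 4 were above and 11 below (median -0.09), and with cluster 5 left out also 4 above and 11 below (median -0.05), so this direction depended on the comparator. It is also no independent evidence, since the leading genes were chosen on the ratio of cluster 1 to the other clusters of the same hashtags. Against cluster 0 alone Enah was -0.92 and Calca -0.23 (edgeR adjusted p = 0.931 and 0.999), neither passing. With cluster 5 left out Enah passed at -1.45 and Calca did not at -0.51 (edgeR adjusted p = 0.0341 and 0.476), while Hspa1a passed at 1.25 (0.00251). With RLE size factors or DESeq2 none of the genes passed, and without IL-33 hashtag 4 or dopamine hashtag 6 none did either. Hspa1a, Pcsk1 and Ramp3 came next without passing, at 1.03, 0.71 and -0.74 (edgeR adjusted p = 0.12, 0.126 and 0.12).

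The dopamine effect on Cd3g was not shown to differ between cluster 1 and the other clusters. Over the other clusters together Cd3g had a log2 fold change of -0.86 (edgeR adjusted p = 0.0948), where none of 10272 genes passed (0%) and 900 had an unadjusted p under 0.05. All 15 leading genes were below 0 in the other clusters (median -0.31), where 50.2% of all genes were above 0 and 49.8% below. These genes were chosen on a ratio that uses the same sums. Cluster 5, itself high in them, made up 20.2% of the cells outside cluster 1 with IL-33 and 8.50% with dopamine. The part of this make-up in the direction was not tested. For Cd3g the difference of -0.21 between cluster 1 and the rest did not pass (edgeR adjusted p = 0.937). In cluster 0 Cd3g was at 59.1, 56.9 and 64.7 CPM with IL-33 and 49.3, 46.5 and 41.2 CPM with dopamine. In cluster 4 it was at 46.4, 57.3 and 50.1 CPM with IL-33 and 25.2, 16.4 and 28.7 CPM with dopamine, so in both clusters all dopamine values were lower, as they were in cluster 3. Cluster 2 overlapped, at 62.4, 46.0 and 68.1 CPM with IL-33 and 39.2, 51.8 and 46.3 CPM with dopamine. Cluster 5 also overlapped, at 139.5, 72.1 and 108.3 CPM with IL-33 and 78.3, 47.9 and 89.8 CPM with dopamine. Actn2 differed by 0.51 between cluster 1 and the rest (edgeR adjusted p = 0.927), from 0.046 to 1.29 over the alternatives, the highest without dopamine hashtag 7, where it passed (edgeR adjusted p = 0.0463).

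IL-33 alone was compared with PBS in cluster 1 over hashtags 3, 4 and 5 against 1 and 2. Il13, Gpr183 and Ltb rose with IL-33, and Lmo4, Junb and Fosb fell. In the other clusters together the same genes had log2 fold changes of 0.20, 0.52, 0.39, -0.57, -0.29 and -0.32, in that order. These directions were shared, and none of these genes passed the interaction given below. Of 8378 genes tested in cluster 1, 24 (0.286%) passed with edgeR, 10 higher (0.119%) and 14 lower (0.167%). An unadjusted p under 0.05 was found for 630. This comparison shares the IL-33 hashtags with the dopamine comparison. PBS hashtag 1 rested on 26 cells, and without it 8 genes passed, without PBS hashtag 2 10 passed, with DESeq2 3 and with all hashtags in one fit 2.

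Gpr183, a receptor for oxysterols that guides lymphocytes, was at 45.3 and 32.3 CPM with PBS and 97.7, 93.3 and 76.5 CPM with IL-33. Its groups stood apart, which the choice of these genes required. Of all genes, 17.3% stood apart on the higher side and 13.1% on the lower. The log2 fold change of Gpr183 was 1.37 ± 0.279 (edgeR adjusted p = 0.00250). Il13 was at 27.2 and 57.6 CPM with PBS and 91.0, 112.9 and 109.4 CPM with IL-33, also apart. Its fold change was 0.97 ± 0.244 (edgeR adjusted p = 0.0455), and it was lost in 7 alternatives. Without PBS hashtag 1 it was 0.82 (edgeR adjusted p = 0.314), and without PBS hashtag 2 it was 2.05 (0.363), so its size rested on that hashtag. Ltb, the lymphotoxin beta gene, was at 552 and 586 CPM with PBS and 973, 796 and 850 CPM with IL-33, a fold change of 0.61 ± 0.121 (edgeR adjusted p = 0.00190). Ltb in hashtag 8, with dopamine, was at 526 CPM, below both PBS values.

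The snoRNA host genes Zfas1 and Gas5 rose by 0.96 and 0.62 on the log2 scale, and by 0.93 and 0.32 in the other clusters together. The transcript 2410006H16Rik, named after its value was seen, rose by 0.97, with an edgeR adjusted p of 2.51e-06, and passed in all 11 alternatives. Ptprcap, a phosphatase-associated protein gene, rose by 0.60, the leading gene Crip1 by 0.43, the surface glycoprotein gene Cd52 by 0.41 and the ribosomal gene Rpl24 by 0.37. Crip1 was at 833 and 905 CPM with PBS and 1207, 1121 and 1222 CPM with IL-33, without overlap, and its call was lost in 8 of 11 alternatives. Those for Cd52 and Zfas1 were lost in 7, that for Ptprcap in 6, that for Rpl24 in 5 and that for Gas5 in 4, and Cd52 was 0.24 without IL-33 hashtag 3.

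Among the genes that fell, Lmo4, a LIM-domain transcriptional cofactor, was at 987 and 892 CPM with PBS and 519.5, 636 and 555 CPM with IL-33. The log2 fold change was -0.69 ± 0.115 (edgeR adjusted p = 6.01e-05). With dopamine it was at 482 and 495 CPM in hashtags 6 and 7 but 946 CPM in hashtag 8, which was as high as PBS. Junb, an AP-1 subunit, was at 2988 and 2187 CPM with PBS and 1872, 1553 and 1634 CPM with IL-33 (-0.55 ± 0.0942, edgeR adjusted p = 7.95e-05). It too was high in hashtag 8, at 2228 CPM. Fosb, another AP-1 subunit, was at 1431 and 1432 CPM with PBS and 897, 971 and 1214 CPM with IL-33 (-0.47 ± 0.105, edgeR adjusted p = 0.0147). With all hashtags in one fit the calls for Gpr183, Ltb, Lmo4, Junb and Fosb were lost, and with DESeq2 all of these but Lmo4. Among the hashtags left out, the calls for Gpr183 and Lmo4 were lost without PBS hashtag 2, that for Junb without PBS hashtag 1 and that for Ltb without PBS hashtag 1 or 2. The call for Fosb was lost in 8 of 11 alternatives.

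Vps37b of the ESCRT machinery fell by 0.53, the mRNA decay factor Zfp36l2 by 0.43, and the abundant genes Ptma and Ppia by 0.36 each. Their log2 fold changes in the other clusters together were -0.45, -0.28, -0.27 and -0.19. The calls for Vps37b and Zfp36l2 were lost in 8 of 11 alternatives and those for Ptma and Ppia in 7, and Vps37b was -0.31 without PBS hashtag 2. The haemoglobin gene Hba-a1 fell by 1.12, from 108.7 and 120.9 CPM with PBS to 55.0, 35.8 and 69.7 CPM, while the dopamine hashtags held 123.5, 108.5 and 47.3 CPM. Hba-a1 is an erythroid marker, and the erythroid list summed to 118 and 125 CPM with PBS and 45.3 to 81.9 CPM with IL-33. Its part in the other results was not tested. Il17a, named after its value was seen, had -3.20, which rested on 1 cell of hashtag 1 and was -0.40 without that hashtag (edgeR adjusted p = 0.942).

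Read by list, 3 immediate early genes passed lower in IL-33 (Junb, Fosb and Zfp36l2) and none higher, with 8 of 33 above 0 and 25 below and a median of -0.20. Over all genes 52% were above 0 and 48% below, and the median was 0.02. The cAMP and CREB response list had 2 of 18 passing lower and a median of -0.28. These 2 were Junb and Fosb, already counted among the immediate early genes. Type 2 effectors had 2 of 23 passing higher, Il13 and Ltb, and a median of 0.16. The 15 leading genes had 9 above 0 and 6 below, with a median of 0.03, and Crip1 passed.

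The IL-33 effect was then set against that in the other clusters. There, 77 of 10055 genes passed between IL-33 and PBS (0.766%), 43 higher (0.428%) and 34 lower (0.338%). All 15 leading genes were above 0 in the other clusters, at a median of 0.72, with 6 that passed, where 50.1% of all genes were above 0 and 49.9% below. Lgals1 in cluster 1 was at 951 and 1055 CPM with PBS and 1143, 885 and 1011 CPM with IL-33, which overlapped. In the other clusters it was at 255 and 301 CPM with PBS and 685, 437.5 and 573 CPM with IL-33, which did not. The interaction was -0.95 ± 0.108 (edgeR adjusted p = 1.32e-09).

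Of 9432 genes, 8 passed this interaction (0.0848%), all with a more negative IL-33 effect in cluster 1, and 530 had an unadjusted p under 0.05. Beside Lgals1 they were S100a6 (-0.79), S100a11 (-0.68), Vim (-0.47) and S100a4 (-0.43), the cytokine gene Csf2 (-0.74) and Areg (-0.68), and Il17a (-5.43). The Il17a UMIs of hashtag 1 came from 1 cell, and without that hashtag the difference was -8.22, with 6 cluster 1 UMIs in hashtag 2. All 15 leading genes were below 0 at a median of -0.56, where 48.5% of all genes were below and 51.5% above. Since these genes were chosen on the ratio of cluster 1 to the other clusters, that direction is no independent evidence. Cluster 5, itself high in these genes, made up 3.61% of the cells outside cluster 1 in PBS, 20.2% in IL-33 and 8.50% in IL-33 plus dopamine. With cluster 5 alone left out of the comparator, which was added with the data in view, 2 genes passed with edgeR, Areg (-0.60) and Il17a (-4.63). The other 6 were lost, with Lgals1 at -0.09, S100a6 at -0.02, S100a11 at -0.18, S100a4 at -0.08, Csf2 at -0.42 and Vim at 0.10. Of the 15 leading genes 4 were then above 0 and 11 below (median -0.08). Against cluster 0 alone Lgals1 was 0.23, S100a6 0.37, Vim 0.15, S100a4 0.090, S100a11 -0.09, Csf2 -0.16 and Areg -0.42, none passing with edgeR, and 9 of the 15 leading genes were above 0 (median 0.15). Without PBS hashtag 2, Csf2, Areg, S100a11, S100a6, S100a4 and Vim did not pass either. That fit left 1 PBS hashtag, and the differences there were -0.79, -0.53, -0.58, -0.71, -0.38 and -0.61 in the same order. Within cluster 0 Lgals1 was at 232 and 248 CPM with PBS and 199, 229 and 194 CPM with IL-33, lower in each IL-33 hashtag, and within cluster 5 at 697 and 801 CPM with PBS and 1266, 1172 and 1358 CPM with IL-33.

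**Figure D4:**
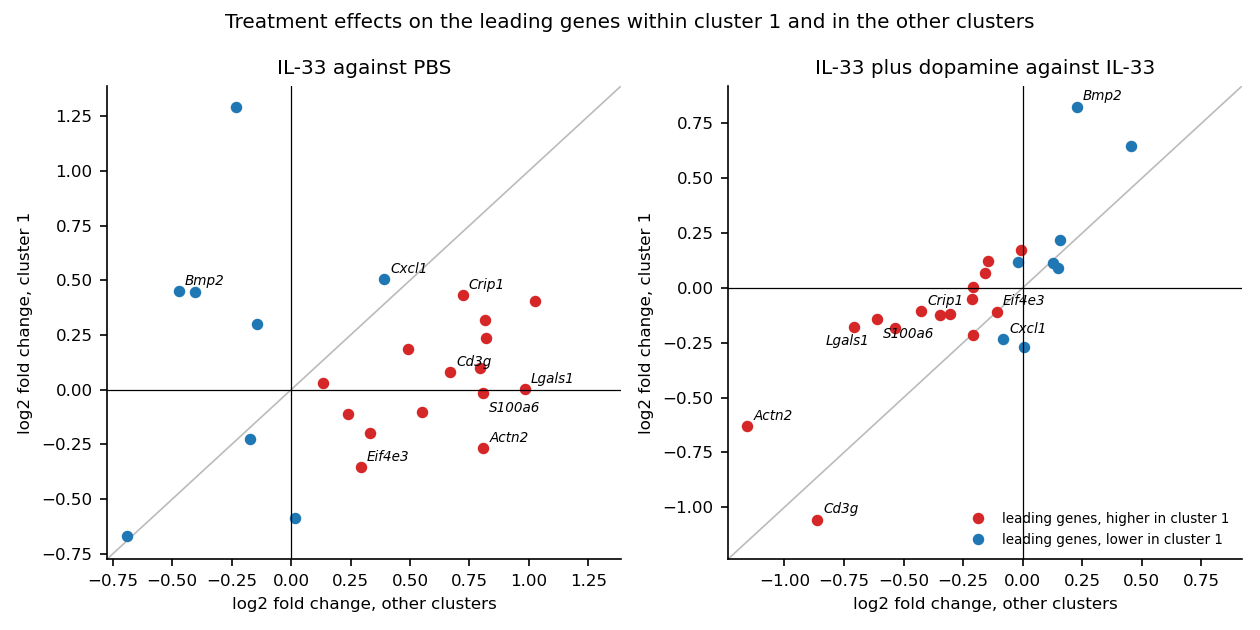
Log2 fold change in cluster 1 (vertical) against that in the other clusters (horizontal) for the 15 leading genes (red) and the 8 lowest genes (blue), for IL-33 against PBS on the left and IL-33 plus dopamine against IL-33 on the right, with the line of equal change in grey. On the left all red points lie right of 0 and below the line, and on the right Cd3g (-1.06 in cluster 1) and Actn2 (-0.63) lie lowest.

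The bulk libraries, which played no part in the clustering, show the same genes in whole sorted ILC2s given IL-33 with PBS or with dopamine. Fewer cells of a type and less RNA per cell cannot be told apart there. Of 11222 genes, 4 passed with limma (0.0356%, all higher with dopamine), 2706 had an unadjusted p under 0.05, and the median gene stood at 0.49 on the log2(TPM + 1) scale, so fold changes are also given relative to that median. None of the 23 leading and lowest genes passed. Crip1 was at 4465, 5808 and 5268 TPM with PBS and 3352, 3164 and 3302 TPM with dopamine, and Lgals1 at 2608, 3452 and 2852 TPM against 1756, 1623 and 1605 TPM. Neither gene overlapped between the groups, with fold changes of -0.65 and -0.83 (limma adjusted p = 0.0832 and 0.0703), or -1.15 and -1.32 relative to the median gene. Without PBS replicate 1, when 1536 genes passed, both did (limma adjusted p = 0.0146 and 0.0150).

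Actn2 was at 38.7, 31.6 and 103 TPM with PBS and 152.1, 148.8 and 128.3 TPM with dopamine, a fold change of 1.49 or 0.99 relative to the median gene (limma adjusted p = 0.0995). It passed without PBS replicate 3, the high library of its group, at 2.00 (limma adjusted p = 0.0234). Cd3g was at 161, 208 and 233 TPM with PBS and 265, 390 and 247.5 TPM with dopamine, a fold change of 0.57 or 0.07 relative to the median gene (limma adjusted p = 0.193). Neither was lower with dopamine in bulk, unlike Cd3g in cluster 1, and the bulk libraries also differ in sex and method. Of the 15 leading genes 7 were above 0 and 8 below, with a median of -0.43. All 8 genes lowest in cluster 1 were above 0, at a median of 0.75, where 71.4% of all genes were above 0 and 28.6% below. Relative to the median gene, Rrad (-0.35) and Hilpda (-0.36) were below, Cxcl1 (0.49 before this) and Arl5c (0.02) lay at about the median, and the other 4 were above. Among them Plaur was at 69.7, 21.1 and 40.8 TPM with PBS and 138.8, 164.8 and 149.9 TPM with dopamine, and Bmp2 at 2.01, 0.34 and 1.29 against 13.2, 14.8 and 30.3 TPM. Both were apart between groups without passing (limma adjusted p = 0.0832 each).

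**Figure D5:**
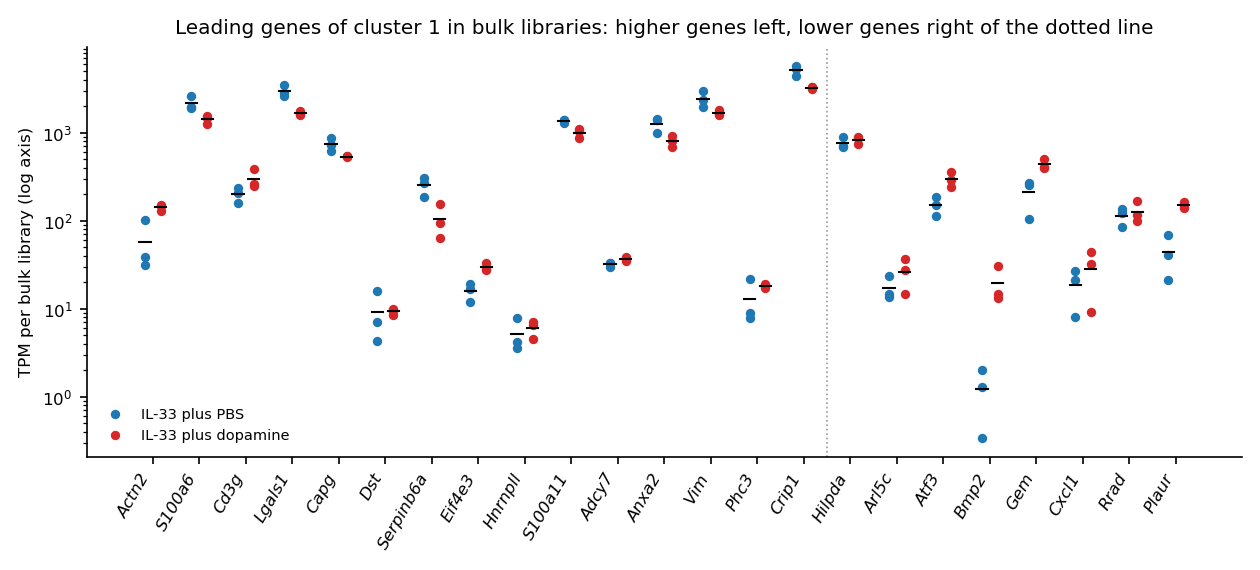
TPM on a log axis in the 3 IL-33 plus PBS (blue) and 3 IL-33 plus dopamine (red) bulk libraries, with means as bars, for the leading genes of cluster 1 left of the dotted line and its lowest genes right of it. Lgals1 and Crip1 points are lower with dopamine, those of Actn2, Plaur and Bmp2 are higher, and no gene shown passed the test.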

How the data were processed

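Single lung ILC2s of 8 hashtags and 6 bulk ILC2 libraries were analysed. The UMI counts are the authors' deposited raw counts per gene and cell; Cell Ranger 6.1.1, Seurat 4.0.2 and the build mm10 are named in the submitters' processing notes, and the cluster numbers, treatment and hashtag of each cell come from the authors' cell table. The table's percent of mitochondrial UMIs was computed by the authors and deposited per cell. The bulk TPM values were deposited by the authors, with cutadapt 2.10, STAR 2.7.5c and RSEM 1.3.3 named in the submitters' processing notes. Cells were kept as deposited, without a search for doublets; their earlier treatment is not stated in the labels. The deposited cells hold at least 1836 UMIs and at most 7.50% mitochondrial UMIs.

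UMIs were summed per hashtag for cluster 1 and for the other clusters, scaled to CPM and filtered on low counts. The quasi-likelihood test of edgeR 4.0.16 in R 4.3.3 was used after TMM scaling, with Benjamini-Hochberg adjustment over all genes and a threshold of 0.05. Differences between cluster 1 and the other clusters in an effect were tested as an interaction with the hashtag as a block. DESeq2 1.42.0 was an alternative. Bulk values were tested as log2(TPM + 1) with limma 3.58.1, a scale that understates the change of low genes. The tests were also run on simulated data. Named genes were the leading genes of the cluster, the up to 10 genes per direction with the largest change among those that passed at a mean of at least 50 CPM without overlap, the next by p where fewer passed, up to 3 per list, and a fixed set; others are said to be named after their values were seen. The members and gene lists were chosen with earlier results of these data known.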

Additional observations from a re-analysis of the deposited data

Results flagged for a closer look

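In 11 cases a treatment effect in cluster 1 differed from that in the other clusters by the test of the difference itself (edgeR interaction, all values log2 differences). For IL-33 against PBS these were Il17a at -5.43, Lgals1 at -0.95, S100a6 at -0.79, Csf2 at -0.74, Areg at -0.68, S100a11 at -0.68, Vim at -0.47 and S100a4 at -0.43. With cluster 5 left out of the comparator, Il17a and Areg still passed and the other 6 did not, and against cluster 0 alone Il17a was the only one of the 8 that passed. For Il17a, 33 UMIs in PBS hashtag 1 came from 1 cell. Without that hashtag the difference was -8.22, with 6 cluster 1 UMIs in PBS hashtag 2. Csf2 was at 860 and 600 CPM with PBS and 773, 686 and 640 CPM with IL-33 in cluster 1, and in cluster 5 at 1839 and 2748 CPM with PBS and 2778, 2536 and 3322 CPM with IL-33. For dopamine added to IL-33 they were Ptgs2 at -1.64, Enah at -1.48 and Calca at -0.62. Against cluster 0 alone Enah was -0.92 and Calca -0.23, neither passing with edgeR. The share of cluster 5 among the cells outside cluster 1 differed between the groups (3.61%, 20.2% and 8.50% for PBS, IL-33 and IL-33 plus dopamine).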

How the results depend on the processing

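The alternatives against cluster 0 alone, against the other clusters without cluster 5, and without cells holding T cell transcripts were chosen after seeing the data. For dopamine in cluster 1, 6 genes passed as reported, 2 with DESeq2, 32 with no filter, 11 with cells between the 10th and 90th percentile of UMIs, and 1 to 24 when a hashtag was left out. For IL-33 against PBS, 24 passed as reported, 3 with DESeq2, 8 with cells between those percentiles, 2 with all hashtags in one fit, and 8 to 25 with a hashtag left out. The dopamine interaction had 3 as reported, 0 with RLE size factors (edgeR) or DESeq2, where 523 had an unadjusted p under 0.05 as reported, 16 with no filter, 1 against cluster 0 alone, and 0 to 8 with a hashtag left out. The IL-33 interaction had 8 as reported, 2 with cluster 5 left out of the comparator, 4 with DESeq2, 14 with no filter and 5 to 11 with a hashtag left out. In bulk, limma called 4 as reported, 2 with a pseudocount of 5, 0 with no filter and 0 to 1536 with a library left out, the most without PBS replicate 1.

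Against cluster 0 alone the IL-33 interaction changed sign for Cd3g (0.33), Lgals1 (0.23), S100a4 (0.090), S100a6 (0.37) and Vim (0.15), and with cluster 5 left out for Vim (0.10). Neurl3, -0.67 for IL-33 against PBS, ran from -0.92 to 0.18 with a hashtag left out, the highest without PBS hashtag 2. In bulk, median-of-ratios scaling turned Adcy7 to -0.25, Dst to -0.19, Hilpda to -0.32, Hnrnpll to -0.16 and Rrad to -0.31, and moved the median gene from 0.49 to 0.13. With a library left out Dst ran from -0.18 to 0.66 and Rrad from -0.077 to 0.31, below 0 without PBS replicate 1 or dopamine replicate 3 for Rrad. The dopamine difference in median UMIs was -119 and ran from -385 to 339 with a hashtag left out, and that in median genes was -21.5 and ran from -79.1 to 86.3. The causes were not tested.

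Same-numbered bulk libraries did not deviate together (correlations of 0.0186, -0.0710 and -0.00177), and with the replicate block 15 genes passed in place of 4. No hashtag was left out for the shares, since they were not compared. PBS hashtag 1, with 26 cells, limits every comparison with PBS.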
